A study of Arabidopsis thaliana with 24 samples.

Results

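Cysteine-rich receptor-like kinases (CRKs) are plant membrane proteins with an extracellular region of cysteine-rich repeats, a membrane-spanning stretch and a serine/threonine kinase inside the cell. Many of their transcripts are known to respond to salicylic acid, pathogens and reactive oxygen species, and many of the genes lie side by side on chromosome 4. The 10 members described here are CRK5, CRK6, CRK7, CRK8, CRK10, CRK11, CRK13, CRK14, CRK22 and CRK23, out of 27782 genes in the deposited table. They were listed by locus and selected on a measured value: CRK23 and CRK6 stood higher in seedlings overexpressing DNE1 than in wild type. The members' levels in those overexpressors and their wild type are therefore given below as a description with no test.

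The 24 libraries, 8 groups of 3, hold mRNA of Arabidopsis thaliana seedlings in the Col-0 background, harvested whole at 14 days. In batches 1 to 3, labelled 2018, the lines OE1 and OE2 carried a GFP fusion of DNE1 driven by the 35S promoter of cauliflower mosaic virus, which is active in most plant tissues, the dne1 group carried an insertion in DNE1, and wild type (WT) was their shared control. In batches 7 to 9, labelled 2019, the D153N line carried a 35S-driven GFP fusion of DNE1 with that amino acid substitution and was set against its own WT. In batches 4 to 6, also labelled 2019, libraries labelled vcs-6, for the decapping scaffold gene VARICOSE (VCS), were set against another WT group. DNE1 is an endoribonuclease found with the mRNA decapping machinery. Each overexpressing group is a single transgenic line, so a line and its transgene insertion cannot be told apart, and no group carries a further allele or treatment in the labels. The replicates are called biological, but nothing says that they were grown apart, and a p-value here reflects only how far these libraries spread. In whole seedlings, fewer cells of a type and less RNA per cell cannot be told apart.

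Libraries of 2018 held 36714564 to 70561391 recovered reads, and those of 2019 held 22611653 to 53908600. DNE1 transcript averaged 21230 ± 2138 normalized counts in OE1 and 19980 ± 2005 in OE2, 309 ± 50.1 in dne1, and 1462 ± 146 in WT of batches 1 to 3. It averaged 15780 ± 3211 in the D153N line and 820 ± 29.6 in its WT (all SD, n = 3). VCS transcript went against a loss: it averaged 8115 ± 632 in the libraries labelled vcs-6 and 5282 ± 600 in their WT (SD, n = 3 each; log2 change 0.62 ± 0.12 SE, limma adjusted p = 0.0041). Reads summed over the gene do not show which form of the transcript is present, and cannot serve as a check of the label. All 5 leaf, 5 root and 3 guard cell lineage markers had reads in every library.

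All 10 members lie in a run of 20 CRK loci on chromosome 4, chr4:12117491-12191704 in the TAIR10.1 assembly, 74.2 kb long, with 6 members on the plus strand and 4 on the minus strand. CRK6 (AT4G23140, chr4:12121369-12124564), CRK7 (AT4G23150, chr4:12125664-12128490) and CRK8 (AT4G23160, chr4:12129485-12134209) follow one another on the plus strand. Over aligned bases, their coding sequences are the closest among the members. CRK6 and CRK8 were 88.9% identical, CRK7 and CRK8 86.4%, and CRK6 and CRK7 83.3%. The median was 69.4% and the range 64.8% to 88.9% over the 45 member pairs. CRK8 aligned over only 65.5% of the shorter coding sequence with CRK6 and 66.2% with CRK7. CRK6 and CRK7 aligned over 99.5%, so the values of CRK8 with both cover a part of the sequence. CRK13 (AT4G23210) and CRK22 (AT4G23300) were 80.4% identical. Of the 31-base words in each transcript, 32.3% in CRK6, 20% in CRK8, 17.1% in CRK22 and 17.0% in CRK13 occur in another transcript, mainly of another CRK. The reads of CRK6 and CRK8, at or over the 20% taken here as a limit, may be divided between loci, and their values are uncertain. CRK10 (AT4G23180, chr4:12137995-12140930) and CRK11 (AT4G23190, chr4:12140899-12143858) overlap tail to tail by 32 bases on opposite strands, and the strand setting of the read counting is not known here.

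The promoters of 5 members are shown. CRK6, CRK7 and CRK23 had the largest differences in the overexpressors on the log2(normalized count + 1) scale. CRK10 and CRK11 are the members with the highest levels beside CRK22, and CRK11 was not called by limma in any comparison. Each runs 5′ to 3′ from 250 bases before to 50 bases after the annotated transcript start (RefSeq annotation, TAIR10.1). Capitals mark the letters TTGAC, the core of the W-box that WRKY transcription factors bind, or its reverse complement GTCAA; no match overlaps another.
CRK6: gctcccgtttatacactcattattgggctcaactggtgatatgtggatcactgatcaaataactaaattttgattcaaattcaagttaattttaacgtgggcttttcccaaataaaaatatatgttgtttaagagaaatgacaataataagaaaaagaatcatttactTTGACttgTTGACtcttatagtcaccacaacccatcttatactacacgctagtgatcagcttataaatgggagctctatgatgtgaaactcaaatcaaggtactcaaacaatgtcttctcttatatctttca
CRK7: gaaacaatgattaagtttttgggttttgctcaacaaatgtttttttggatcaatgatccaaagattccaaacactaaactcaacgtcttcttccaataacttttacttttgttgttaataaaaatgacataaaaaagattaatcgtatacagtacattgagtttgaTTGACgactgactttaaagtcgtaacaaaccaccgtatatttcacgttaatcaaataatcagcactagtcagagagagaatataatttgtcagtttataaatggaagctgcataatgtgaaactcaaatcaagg
CRK23: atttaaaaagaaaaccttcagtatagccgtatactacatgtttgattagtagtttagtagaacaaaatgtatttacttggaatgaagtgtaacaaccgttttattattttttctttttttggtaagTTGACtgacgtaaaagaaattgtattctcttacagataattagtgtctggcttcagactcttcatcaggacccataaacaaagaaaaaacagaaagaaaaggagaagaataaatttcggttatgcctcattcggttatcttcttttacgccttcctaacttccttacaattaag
CRK10: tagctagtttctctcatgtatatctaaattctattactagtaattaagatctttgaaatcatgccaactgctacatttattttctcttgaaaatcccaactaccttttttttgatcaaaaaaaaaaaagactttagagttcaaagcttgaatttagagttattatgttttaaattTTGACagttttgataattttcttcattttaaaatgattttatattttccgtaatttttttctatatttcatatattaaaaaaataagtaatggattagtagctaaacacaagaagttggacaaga
CRK11: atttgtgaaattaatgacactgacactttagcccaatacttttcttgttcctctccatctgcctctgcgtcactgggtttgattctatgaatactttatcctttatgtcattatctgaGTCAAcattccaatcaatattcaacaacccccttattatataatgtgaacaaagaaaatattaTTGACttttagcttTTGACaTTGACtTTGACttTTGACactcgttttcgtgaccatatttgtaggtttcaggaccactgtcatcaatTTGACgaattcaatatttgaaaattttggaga
TTGAC was searched on both strands. The CRK6 promoter (chr4:12121119-12121418, plus strand) held 2 matches, 82 and 74 bases before the start, and the CRK7 promoter (chr4:12125414-12125713, plus strand) held 1, 84 bases before it. These promoters were 76.7% identical over 240 aligned bases, against a median of 62.1% over the promoter pairs. The CRK23 promoter (chr4:12185119-12185418, plus strand) held 1 match, 124 bases before the start, and the CRK10 promoter (chr4:12137745-12138044, plus strand) held 1, 75 bases before it. The CRK11 promoter (chr4:12143809-12144108, minus strand) held 7, with 5 of them between 69 and 36 bases before the start. Over the members, 8 of 10 promoters held at least 1 match, 4 at least 2 and 2 at least 3. CRK13 and CRK22 held none and are not printed, although both were called in vcs-6, so every printed promoter holds a match. Of the other 10 promoters in the run, 8 held at least 1, 7 at least 2 and 4 at least 3. Among all 27443 promoters of the same length 50.5% held at least 1, 17.7% at least 2 and 4.86% at least 3, so a match is common everywhere and is a description of these letters only.

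The members spanned a wide range of levels. Per kilobase of transcript, CRK10 was the highest member in all 8 groups, at 1620 normalized counts per kb in OE1, 1540 in OE2, 2810 in dne1 and 2870 in WT of batches 1 to 3. CRK11 and CRK22 came next in those groups, between 215 and 308, followed by CRK14 between 74.2 and 127. CRK7 was the lowest member in every group but the libraries labelled vcs-6, with 5.52 in OE1, 9.00 in OE2, 0.921 in dne1 and 0.167 in WT. In WT of batches 1 to 3 the order below CRK14 was CRK13 at 9.60 and CRK5 at 9.47, CRK8 at 3.74, CRK6 at 2.12, CRK23 at 1.13 and CRK7. Groups of 3 libraries do not separate the neighbours CRK13 and CRK5, or CRK11 and CRK22, whose library values overlap.

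**Figure D1:**
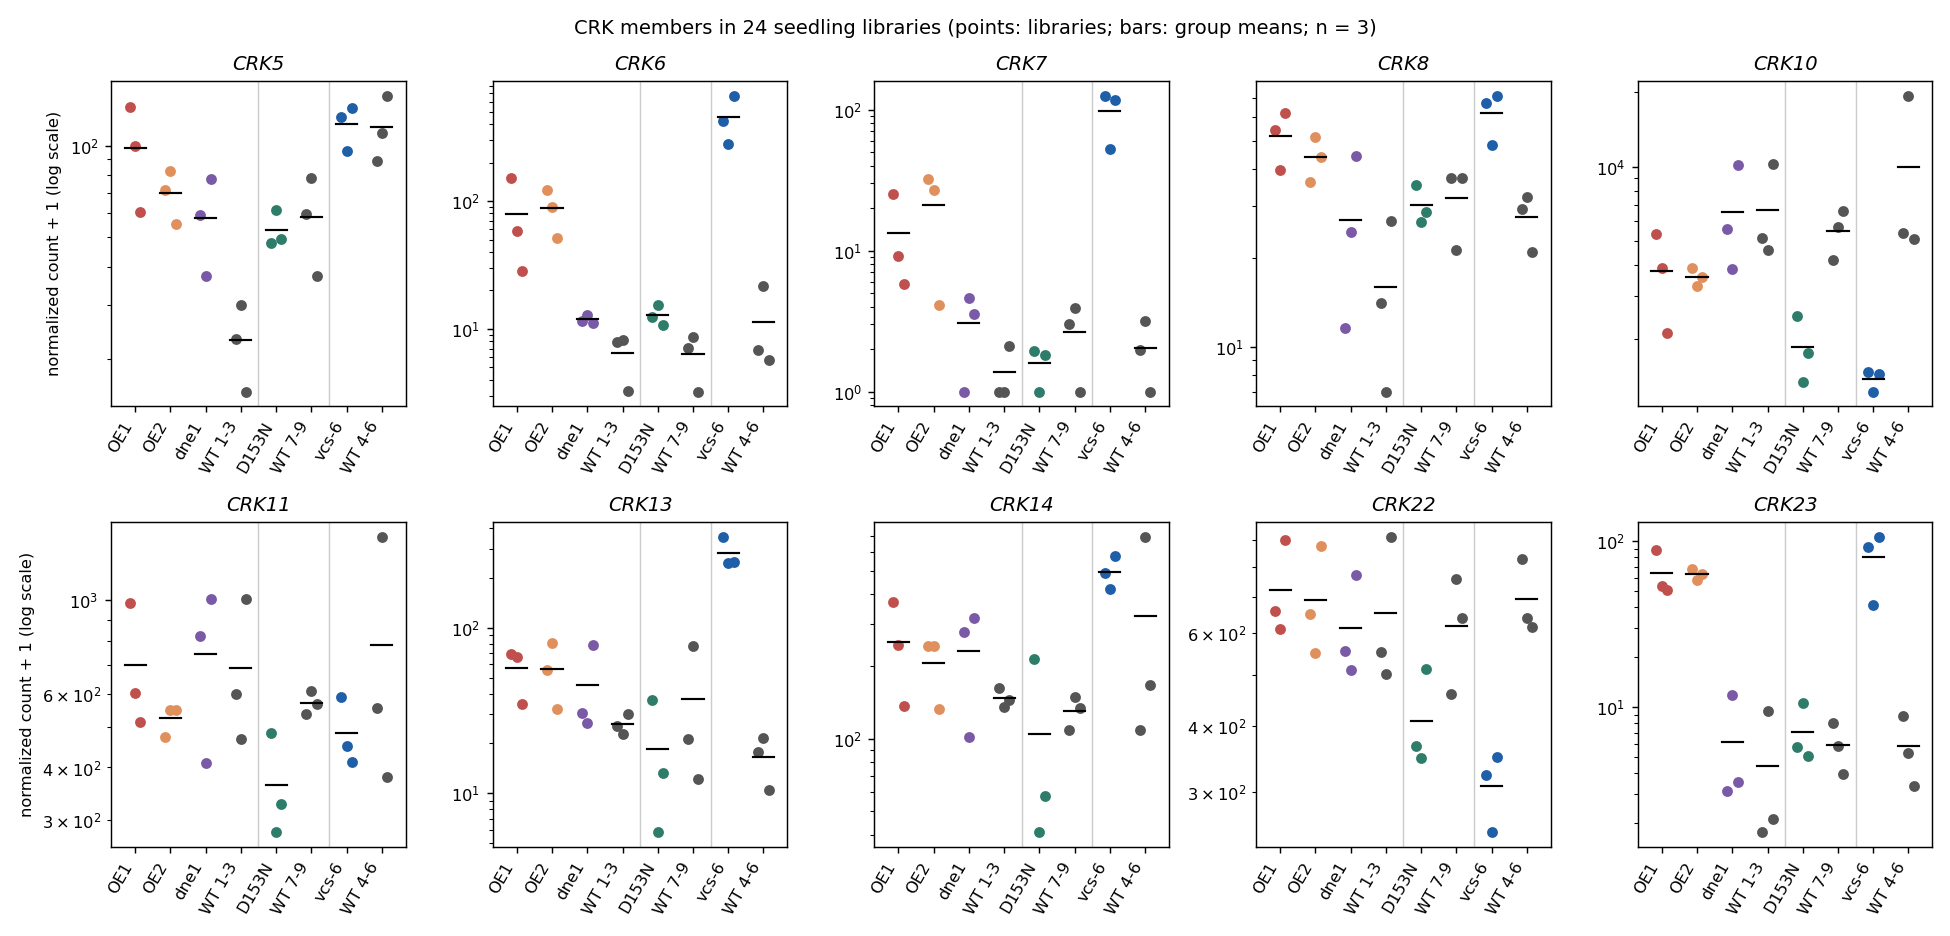
Normalized count plus 1 (log axis, with its own range in each panel) of the 10 members in the 24 libraries; points are libraries, and bars are group means of 3. CRK23 stood at 49.7 to 87.4 in OE1 and OE2 and at 0.767 to 8.46 in their WT. The libraries labelled vcs-6 have the highest group mean of 2019 for CRK5, CRK6, CRK7, CRK8, CRK13, CRK14 and CRK23, with CRK5 and CRK14 overlapping their WT.

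In the DNE1 overexpressors CRK23, a member with no role stated here, showed the widest gap on the log2(normalized count + 1) scale. CRK23 had 87.4, 52.7 and 49.7 normalized counts in OE1 of batches 1, 2 and 3, and 67.5, 57.7 and 62.8 in OE2, against 0.767, 8.46 and 1.12 in WT. Every overexpressor library lay above every WT library, and the WT values rest on few reads. On that scale, which is used for all differences here and understates the change of low genes, OE1 was 4.24 and OE2 4.27 above WT. In the authors' deposited table, where both lines are set together against WT, the log2 fold change is 1.19 for CRK23 and 1.70 for CRK6, far below these differences; how those values were estimated is not stated.

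CRK6 and CRK7, which act in responses to extracellular reactive oxygen species, stood high in the same libraries. CRK6 had 151, 57.6 and 27.3 normalized counts in OE1 and 122, 88.6 and 50.3 in OE2, against 6.91, 7.25 and 2.24 in WT. The groups did not overlap, and OE1 and OE2 were 3.41 and 3.79 above WT (log2). CRK7 had 24.1, 8.11 and 4.81 in OE1 and 31.2, 26.0 and 3.14 in OE2, against 0, 0 and 1.12 in WT. CRK7 in WT was thus a single read over 3 libraries: the ratio of its summed reads, each sum divided by the summed size factors of its group, was 39.2 for OE1 (37 reads against 1, 95% interval 6.61 to 1590) and 62.8 for OE2 (66 reads against 1, 95% interval 10.9 to 2520). These exact intervals cover counting error only.

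CRK5, whose overexpression is known to raise defence and cell death responses, had 133, 98.9 and 59.4 in OE1 and 70.5, 81.3 and 54.5 in OE2, against 22.3, 29.01 and 14.6 in WT. CRK8 had 53.3, 38.9 and 61.0 in OE1 and 35.3, 50.4 and 42.9 in OE2, against 13.05, 6.04 and 25.8 in WT. CRK13, whose overexpression is known to raise salicylic acid and resistance to bacteria, had 68.4, 65.7 and 33.7 in OE1 and 54.4, 79.7 and 31.4 in OE2, against 24.6, 21.8 and 29.2 in WT. None of these 3 overlapped with WT in either line, although CRK13 in batch 3 came close to it. The log2 differences in OE1 and OE2 were 2.07 and 1.64 for CRK5, 1.89 and 1.65 for CRK8, and 1.06 and 1.02 for CRK13.

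CRK10, for which a gain-of-function allele is known to dwarf the plant and alter its root vessels, lay on the other side. It had 5315, 3891 and 2112 normalized counts in OE1 and 3882, 3283 and 3559 in OE2, against 5138, 4606 and 10283.5 in WT. The WT library of batch 3 was about as high as that of dne1 in the same batch, at 10183, and far above the other WT libraries. Within batches 1, 2 and 3 the log2 difference of CRK10 was 0.05, -0.24 and -2.28 in OE1 and -0.40, -0.49 and -1.53 in OE2, so the mean differences of -0.83 and -0.81 rest mostly on batch 3. CRK11, CRK14 and CRK22 overlapped with WT in both lines, with differences between -0.33 and 0.66.

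In all, 6 of 10 members (CRK5, CRK6, CRK7, CRK8, CRK13 and CRK23) had every OE1 and every OE2 library above every WT library. Among all 21631 genes 3.07% did so in both lines, 6.36% in OE1 and 6.13% in OE2; since this contrast chose the members, nothing is read from their count. CRK10 had every OE2 library below every WT library, as 5.28% of genes did; no member did so in OE1 or in both lines, as 5.35% and 2.31% of genes did. The median difference over the members was 1.48 in OE1 and 1.33 in OE2, and over all genes -0.00 and -0.02. The members' median was smaller in batch 3: within batches 1, 2 and 3 it was 1.70, 1.64 and 0.71 in OE1, and 1.2, 1.64 and 0.41 in OE2. Medians over all genes were not taken within batches.

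**Figure D2:**
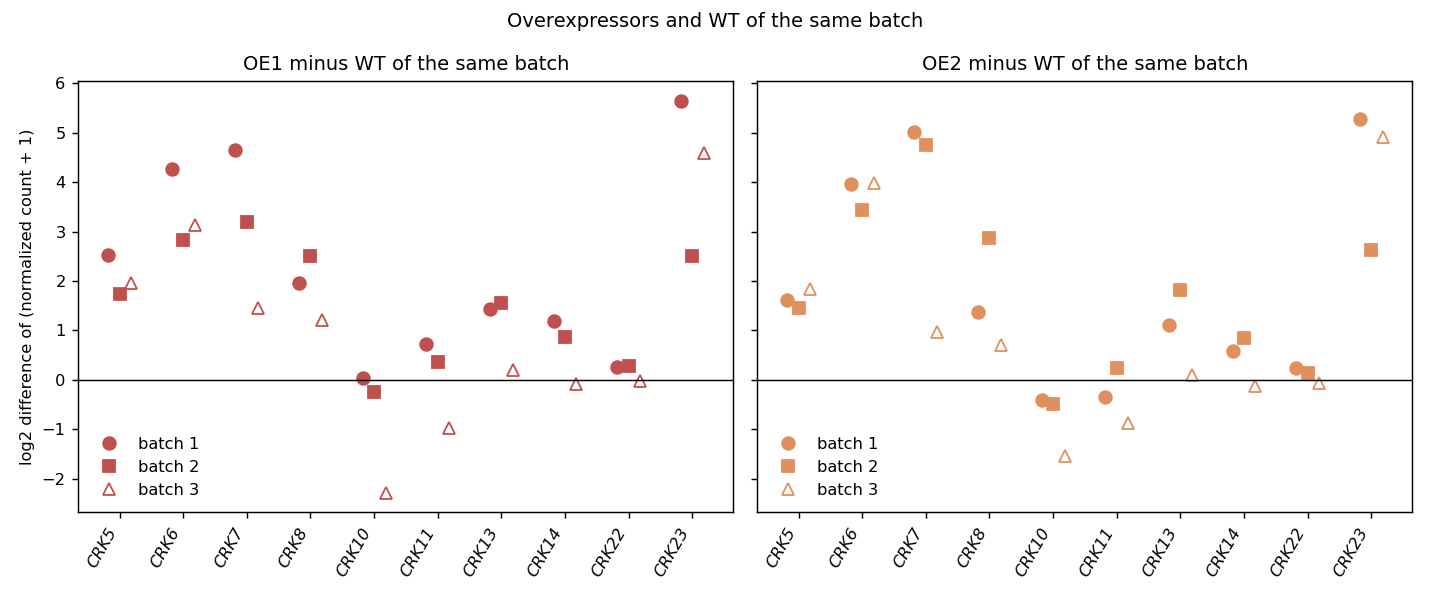
Difference of log2(normalized count + 1) between each overexpressor library and the WT library of its batch, for OE1 (left) and OE2 (right). CRK5, CRK6, CRK7, CRK8, CRK13 and CRK23 lie above 0 in every batch and line, while batch 3 (triangles) holds the lowest CRK10 difference of each line, -2.28 in OE1 and -1.53 in OE2.

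OE1 and OE2 were tested against each other. The choice of members did not use this contrast but did use levels of these same libraries, so the outcome is given as a description. No member was called: limma (12 libraries of batches 1 to 3, Benjamini-Hochberg adjusted p under 0.05 over 21631 genes) gave 0 of 10, 0 of 10 had an unadjusted p under 0.05, and the edgeR quasi-likelihood test and DESeq2 on recovered reads also gave 0. Of all genes 0% were called. The widest difference was that of CRK7, -0.48 ± 0.89 (SE; 95% interval -2.43 to 1.47; adjusted p = 1). For CRK23 it was -0.03 ± 0.65 (95% interval -1.46 to 1.4), and for CRK6 -0.39 ± 0.58 (95% interval -1.66 to 0.88). For CRK7 and CRK23 the intervals reach beyond 1 on the log2 scale in both directions. Both met the level needed for a test (10 normalized counts in 3 libraries) only through overexpressor libraries, so nothing is read from their tests.

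In dne1, which shares its WT libraries with OE1 and OE2, limma called 0 members, against 0.0185% of 21631 genes in either direction (0.00925% higher and 0.00925% lower); CRK5 was the 1 member with an unadjusted p under 0.05, and edgeR and DESeq2 also called 0. CRK5 had 58.2, 36.2 and 76.5 normalized counts in dne1 of batches 1, 2 and 3, against 22.3, 29.01 and 14.6 in WT, a change of 1.33 ± 0.37 (95% interval 0.51 to 2.14, unadjusted p = 0.0042, adjusted p = 1 by limma). CRK6 had 10.6, 11.8 and 10.2 in dne1, against 6.91, 7.25 and 2.24 in WT (change 0.99 ± 0.58, adjusted p = 1). These were the 2 members with every dne1 library above every WT library, as 2.74% of all genes had, while no member lay wholly below WT, as 2.28% of genes did. The choice of members used these same WT libraries, so nothing is read from that count. CRK23, at 2.11, 10.9 and 2.55 in dne1 against 0.767, 8.46 and 1.12 in WT, overlapped with WT. CRK23 and CRK7 entered this fit only through the overexpressor libraries, since both missed the level filter (10 normalized counts in 3 libraries) in dne1 and WT, and no test of them is given.

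The D153N line was set against its own WT. CRK10 was the 1 member called, and it was lower: 2493, 1343 and 1760.5 normalized counts in the D153N libraries of batches 7, 8 and 9, against 4171, 5680 and 6594 in WT. No D153N library reached any WT library, as for 19.5% of genes, and CRK10 fell by 1.58 ± 0.25 on the log2 scale (95% interval -2.18 to -0.97, limma adjusted p = 0.012). Within batches 7, 8 and 9 the difference was -0.74, -2.08 and -1.91. Without the WT library of batch 9 the call was lost (change -1.43, adjusted p = 0.056). In the authors' deposited table the log2 fold change of CRK10 is -1.38 with an adjusted p of 0.00283.

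CRK11 had 481, 279 and 327 in the D153N line, against 534, 609 and 564 in WT, again without overlap, but did not pass the test (change -0.69 ± 0.20, limma adjusted p = 0.059; adjusted p = 0.026 by DESeq2). Without the D153N library of batch 7 limma called CRK11 (change -0.91, adjusted p = 0.0097) and CRK14 (change -1.41, adjusted p = 0.015) as well as CRK10. CRK14 had 214, 39.9 and 57.2 in the D153N line, with batch 7 apart, against 108.0, 148 and 134 in WT (change -0.70 ± 0.58, adjusted p = 0.43). CRK22 had 365, 346 and 510.3 in the D153N line, against 459, 756 and 638 in WT (change -0.59 ± 0.22, adjusted p = 0.11), and the authors' deposited table gives it an adjusted p of 0.048. CRK13 ranged widely in both groups, at 35.4, 4.79 and 12.2 in the D153N line against 20.2, 76.1 and 11.1 in WT (change -0.94 ± 0.86, adjusted p = 0.48). CRK5 and CRK8 stood within 0.1 of WT, with changes of -0.09 ± 0.30 and -0.04 ± 0.30 (95% intervals -0.79 to 0.61 and -0.75 to 0.66).

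CRK6, CRK7 and CRK23 fell under the level filter in these 6 libraries and were not tested, since a gene had to reach 10 normalized counts in 3 libraries. CRK23 had 4.78, 9.57 and 4.08 in the D153N line, against 7.07, 4.82 and 2.97 in WT, and the groups overlapped. CRK6 had 11.5, 14.4 and 9.80 in the D153N line, against 6.06, 7.71 and 2.23 in WT, with no overlap and no more than 12 reads in any of the libraries. Among the genes tested, 20% lay wholly above WT. CRK7 had 0.956, 0 and 0.817 in the D153N line, against 2.02, 2.89 and 0 in WT. Thus 0 of the 7 tested members were called higher and 1 lower, against 9.09% and 6.84% of 21124 genes (15.9% in either direction), and 3 had an unadjusted p under 0.05.

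**Figure D3:**
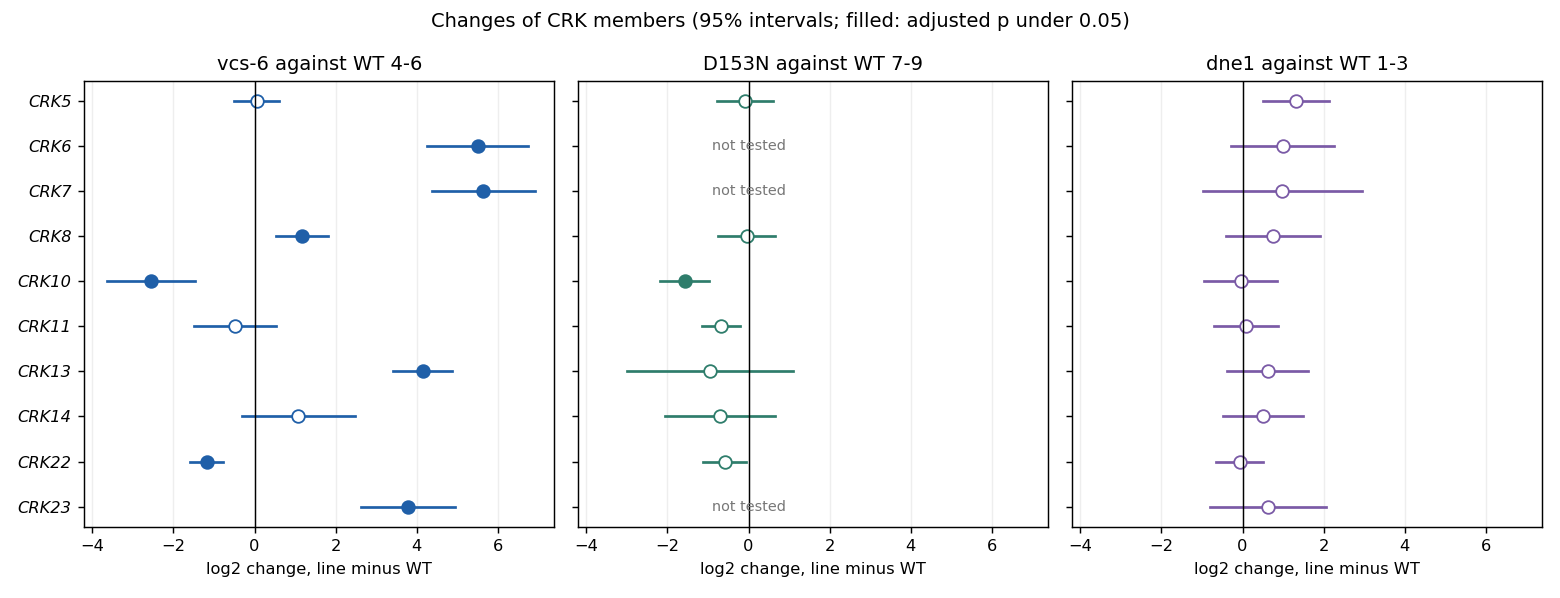
Change of each member against WT in the libraries labelled vcs-6, in the D153N line and in dne1, as log2 with 95% intervals; filled points passed limma's adjusted p under 0.05, and genes under the level filter are marked as not tested. CRK10 is filled on the lower side in both vcs-6 and D153N, at -2.55 and -1.58, and no point is filled for dne1, where CRK7 and CRK23 entered the fit only through the overexpressors; the fitted value of CRK7 in vcs-6 rests on 3 WT reads.

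In the libraries labelled vcs-6, members of the run moved both ways. The values that chose the members did not come from these libraries, but earlier results of these data were known. CRK6 had 422, 279 and 665 normalized counts in vcs-6, against 5.86, 20.5 and 4.70 in WT of batches 4, 5 and 6. Every vcs-6 library lay far above every WT library, and CRK6 rose by 5.51 ± 0.54 (95% interval 4.26 to 6.75, limma adjusted p = 0.00015). All vcs-6 libraries lay above all WT libraries for 31.3% of 21351 genes, and below them for 30.6%. CRK13 had 355, 246 and 249 in vcs-6, against 16.6, 20.5 and 9.40 in WT, and rose by 4.15 ± 0.31 (adjusted p = 5.8e-05). CRK23 had 91.3, 40.2 and 106 in vcs-6, against 7.82, 4.32 and 2.35 in WT (change 3.78 ± 0.50, adjusted p = 0.00061). All WT values of CRK23 and CRK7 lay under 10, so both met the level filter only through the vcs-6 libraries where they are high; in a fit with no filter their adjusted p was 0.00057 and 0.00011. The 3 vcs-6 columns carry no batch number in the deposited table, so no pair of a vcs-6 and a WT library can be formed.

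CRK7 had 124, 51.5 and 117 in vcs-6, against 0.977, 2.16 and 0 in WT. Its adjusted p was 0.00015, and since WT held 3 reads against 297 in vcs-6, the ratio of summed reads, each sum divided by the summed size factors of its group, is given in place of the fitted change: 87.2, with a 95% interval of 29.5 to 425 for counting error only. CRK8 had 66.0, 47.5 and 70.0 in vcs-6, against 28.3, 31.3 and 19.98 in WT. It lay wholly above WT, as 31.3% of genes did, and rose by 1.18 ± 0.28 (limma adjusted p = 0.0091). Since 16.8% of the 31-base words of CRK8 also occur in CRK6, the reads of CRK6 and CRK8 may be divided between both loci.

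CRK10 and CRK22 fell in the same libraries. CRK10 had 1476, 1226 and 1450 in vcs-6, against 5403, 19341 and 5091 in WT, and fell by 2.55 ± 0.47 (adjusted p = 0.0028). The WT library of batch 5 stood far above the others for CRK10; without it the change was -1.93 (adjusted p = 2.9e-05). CRK22 had 321, 250.3 and 348 in vcs-6, against 826, 639 and 615 in WT. It lay wholly below WT, as 30.6% of genes did, and fell by 1.18 ± 0.18 (limma adjusted p = 0.0011).

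CRK5, CRK11 and CRK14 did not pass the test in vcs-6. CRK5 had 123, 94.98 and 132 in vcs-6, against 88.0, 109 and 145 in WT, and overlapped with it fully (change 0.05 ± 0.24, 95% interval -0.50 to 0.60, adjusted p = 0.87). CRK14 had 486, 419 and 577 in vcs-6, against 108, 693 and 166 in WT, where the batch 5 library was again the high one (change 1.08 ± 0.60, adjusted p = 0.17). Without that library CRK14 was called higher, at 1.87 (adjusted p = 0.00038). CRK11 had 588, 450.0 and 410.4 in vcs-6, against 552, 1419 and 378 in WT (change -0.48 ± 0.44, adjusted p = 0.39), and without the batch 5 library its change was 0.062.

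In all, limma called 5 of 10 members higher and 2 lower in vcs-6, with 3 not called, against 26.7% of 21351 genes called higher and 24.8% called lower. More than 1 in 2 genes of the seedling moved in this comparison (51.5%), so a called change alone sets no gene apart. The 5 include CRK7 and CRK23, which the filter admitted only on their high side, so the count is given as a description; CRK6, CRK8 and CRK13 are the other 3. CRK6, with 1 WT library at 10 or more, and CRK13, with 2, also needed vcs-6 libraries to meet the filter, and CRK8 met it in WT alone. When any single vcs-6 library was left out, 3 members were called higher, because CRK7 and CRK23 then fell under the level filter; without the WT library of batch 5 the count was 6. In the authors' deposited table the same 7 members have an adjusted p under 0.05, with log2 fold changes of 4.80 for CRK6, 4.86 for CRK7, 3.33 for CRK23, 3.28 for CRK13, 1.11 for CRK8, -1.14 for CRK22 and -2.53 for CRK10.

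Markers of cell types moved in the same comparison. The summed level of the 5 leaf markers was 788500 to 1033000 normalized counts in vcs-6 and 1678000 to 2060000 in WT, with 4 of 5 called lower. The 3 guard cell lineage markers summed to 124 to 148 in vcs-6 and 743 to 916 in WT, with 3 of 3 called lower, and the 5 root markers summed to 2378 to 4722 in vcs-6 and 1762 to 2415 in WT, with 1 called higher and 1 lower. None of these markers was at 0 in any library. Their part in the changes of the CRK genes was not tested.

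The test of the vcs-6 effect minus the D153N effect, in a fit of all 24 libraries, called 4 members higher and 0 lower, against 13.3% and 13% of 22214 genes (26.3% in either direction). CRK13 differed by 5.09 ± 0.89 (limma adjusted p = 3e-04), CRK6 by 4.38 ± 0.82 (adjusted p = 0.00056) and CRK23 by 3.53 ± 0.84 (adjusted p = 0.0041). CRK7 and CRK23 met the level filter in this fit only through vcs-6 and overexpressor libraries, so their tests and the count called higher are given as a description. The filter and the estimate of spread in this fit also drew on the overexpressors and WT that chose the members. CRK7 was the other called member (adjusted p = 0.00039), with 3 reads or fewer in each library of both WT groups and of the D153N line, so no size is given. CRK10, called lower in each line, did not differ between them beyond its error (difference -0.98 ± 0.63, 95% interval -2.30 to 0.35, adjusted p = 0.28). CRK14 differed by 1.78 ± 0.86 (adjusted p = 0.14, but called without the WT library of batch 5 or the D153N library of batch 7) and CRK8 by 1.22 ± 0.62 (adjusted p = 0.16).

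The other 10 CRK genes of the run moved both ways in vcs-6. Of 9 tested, 2 rose and 3 fell, with a median of 0.35. Among all genes tested, 26.7% were called higher and 24.8% lower in vcs-6, and 9.09% and 6.84% in the D153N line. CRK12 averaged 84.8 ± 27.4 in vcs-6 and 16.9 ± 16.2 in WT, and rose by 2.58 ± 0.59 (limma adjusted p = 0.0083). With its lowest WT library at 6.84, CRK12 needed vcs-6 libraries to meet the level filter. CRK16 rose by 1.41 ± 0.24 (limma adjusted p = 0.0021). CRK21 averaged 281 ± 60.8 in vcs-6 and 1731 ± 387 in WT, and fell by 2.62 ± 0.20 (adjusted p = 6.5e-05), and CRK19 fell by 0.98 ± 0.15 (adjusted p = 0.0014; all limma, SD with n = 3). CRK17 fell too, by 0.47 ± 0.16 (limma adjusted p = 0.04). CRK16 and CRK17 overlap each other on the minus strand and share 31-base words with other loci, 38.7% and 31.5% of them, so both are uncertain. CRK19 is uncertain as well, since it overlaps a gene of the opposite strand by 102 bases. In the D153N line 0 of 7 tested rose and 2 fell, CRK18 by 0.96 ± 0.11 (adjusted p = 0.0044) and CRK19 by 0.69 ± 0.15 (adjusted p = 0.025); the count was 1 without any one WT library or the D153N library of batch 9. The CRK genes that rose and fell were mixed along the run: CRK21 and CRK22, adjacent and on opposite strands, both fell in vcs-6, while CRK23, next to CRK22, stood higher.

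**Figure D4:**
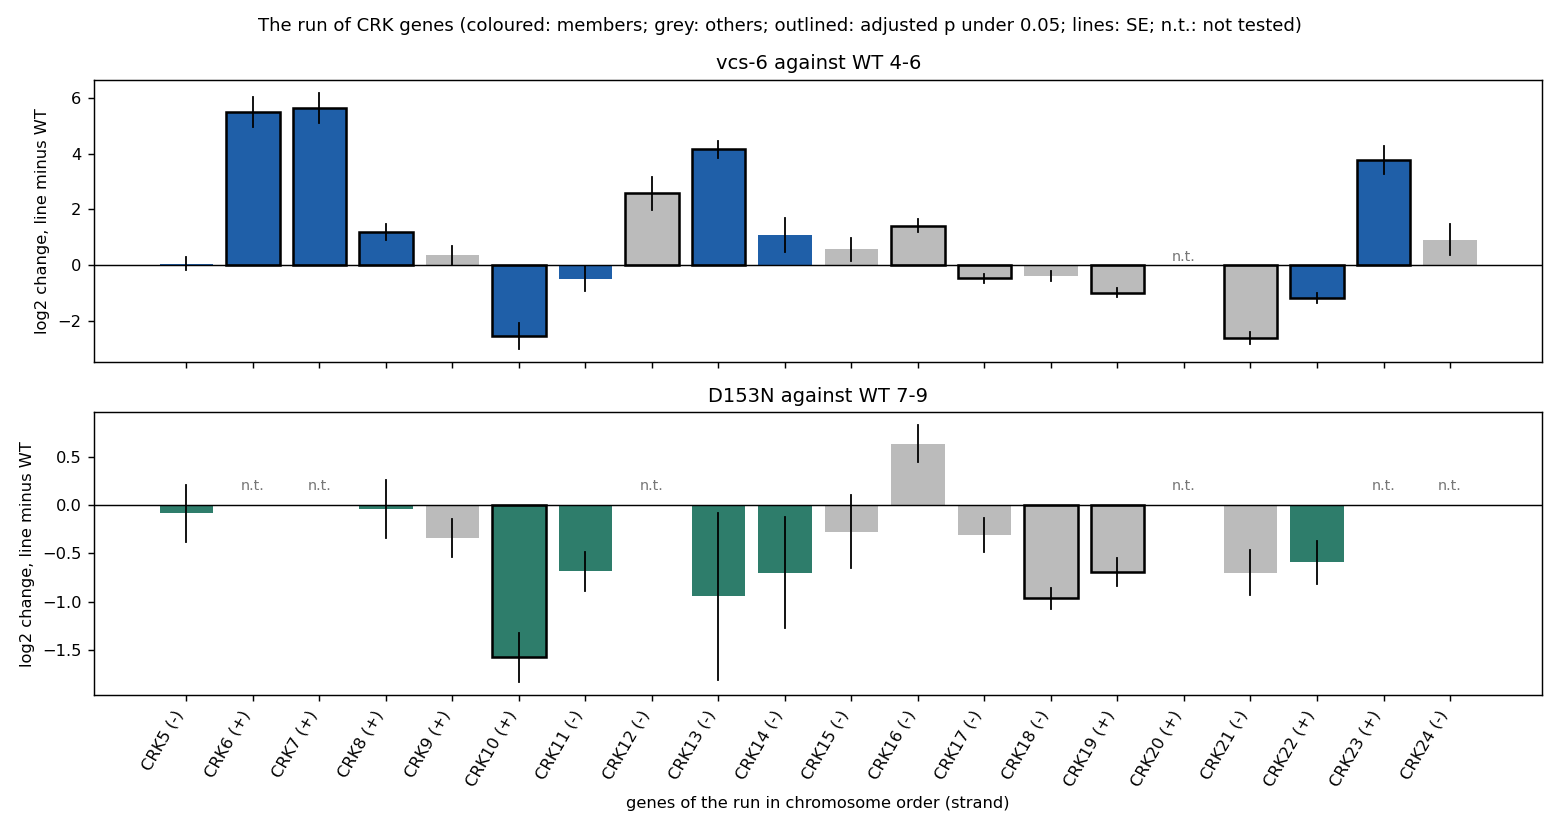
Log2 change of the 20 CRK genes of the run in chromosome order with their strands, in vcs-6 against WT (top) and D153N against WT (bottom); coloured bars are the 10 members, grey bars the others, lines are SE, outlined bars passed limma's adjusted p under 0.05, and n.t. marks genes under the level filter. In vcs-6, CRK6 (5.51) and CRK13 (4.15) stand high in the same run in which CRK10 (-2.55) and CRK21 (-2.62) stand low; the bar of CRK7 rests on 3 WT reads.

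Of 26 CRK genes outside the run, 17 were tested in vcs-6, where 3 rose and 8 fell with a median of -0.44, against 26.7% and 24.8% of all genes, and 15 in the D153N line, where 0 rose and 5 fell with a median of -0.44, against 9.09% and 6.84%. In vcs-6 the count called higher was 1 without any one vcs-6 library, and the count called lower was 5 without the WT library of batch 4 or of batch 6, or without 1 of the vcs-6 libraries. CRK45 averaged 308 ± 143 in vcs-6 and 24.1 ± 15.1 in WT, and rose by 3.70 ± 0.54 (adjusted p = 0.00099). CRK36 averaged 74.8 ± 33.1 in vcs-6 and 4.54 ± 3.20 in WT, with a change of 3.90 ± 0.56 (limma adjusted p = 0.00092). CRK36 met the level filter only through vcs-6, as did CRK39, the other gene that rose. CRK45 had a WT library at 9.8, under the filter, and also needed vcs-6 libraries to meet it. CRK40 fell in both lines, by 1.238 ± 0.19 in vcs-6 (adjusted p = 0.0013) and by 1.237 ± 0.31 in the D153N line (adjusted p = 0.039). CRK45 is uncertain, since its end lies over a gene of the other strand. In the D153N line the count called lower moved with every library: it was 8 without the D153N library of batch 7, and 0 to 2 without any one of the other libraries. Neither CRK list held a called gene in dne1 or between OE1 and OE2.

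The 21 immune signalling genes, a list of receptors, oxidases, salicylic acid genes and WRKY factors, give the setting of these changes. In vcs-6, 8 rose, 3 fell and 10 were not called, with a median of 0.37. Of all genes tested, 26.7% were called higher and 24.8% lower in vcs-6, and 9.09% and 6.84% in the D153N line. PR2, a glucanase gene marking salicylic acid responses, averaged 7086 ± 3800 in vcs-6 and 47.8 ± 39.9 in WT, and rose by 7.31 ± 0.60 (adjusted p = 7.9e-05). PR5 averaged 1536 ± 1067 in vcs-6 and 78.6 ± 30.9 in WT, and rose by 4.05 ± 0.55 (adjusted p = 0.00068). WRKY70, a factor that promotes salicylic acid responses, fell by 3.16 ± 0.13 in vcs-6 (adjusted p = 8.2e-06) and FLS2, the flagellin receptor, by 1.35 ± 0.26 (adjusted p = 0.0035). In the D153N line 1 of 20 rose and 2 fell: PR5 averaged 526 ± 113 in the D153N line and 103 ± 50.05 in WT and rose by 2.44 ± 0.35 (adjusted p = 0.009), while WRKY70 fell by 1.94 ± 0.47 (adjusted p = 0.037) and SOBIR1, a co-receptor of receptor-like proteins, by 1.16 ± 0.28 (adjusted p = 0.038; all limma). In the D153N line the count called lower was 4 without the D153N library of batch 7, 1 without that of batch 9, and 0 without that of batch 8 or the WT library of batch 8 or of batch 9. In vcs-6 the count called higher was 5 without the WT library of batch 4 or of batch 6 or 1 of the vcs-6 libraries, and the count called lower was 5 without the WT library of batch 6.

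The genes most like CRK23 and CRK6 were sought by Pearson's correlation of log2(normalized count + 1) over the 12 libraries of batches 1 to 3, among 21631 genes. Those libraries include the overexpressors that chose the members, so the values are a description with no p. RLP23, which encodes a receptor-like protein and overlaps a gene end on the opposite strand, stood among the 5 nearest genes of both, with r = 0.97 for CRK23 and 0.96 for CRK6. In the 12 libraries of 2019, which the search did not use, its r was 0.97 with CRK23 and 0.98 with CRK6, and these libraries share the separation of vcs-6 from the rest. RLP23 averaged 218 ± 163 in OE1, 318 ± 135 in OE2, 21.1 ± 12.02 in dne1 and 16.1 ± 12.4 in their WT, 23.4 ± 7.26 in the D153N line and 15.1 ± 8.64 in its WT, and 1204 ± 511 in vcs-6 and 14.4 ± 7.93 in its WT (SD, n = 3). The other genes nearest to CRK23 were RLP20 (r = 0.98 over batches 1 to 3, 0.82 in 2019), AT1G73120 (0.96 and 0.95), GRP20 (0.94 and 0.56) and AT5G26270 (0.94 and 0.78). Those nearest to CRK6 were AT5G10760 (0.97 and 0.98), CHI (0.95 and 0.97), FLOT1 (0.95 and 0.91) and AT3G16530 (0.94 and 0.50).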

How the data were processed

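Per the labels, TRIZOL was used for RNA extraction and the Lexogen SENSE kit for the mRNA-Seq libraries. The submitters' processing notes name HISAT2 2.1.0, HTSeq, DESeq2, bcl2fastq 2.17.1.14 and the TAIR10 build; their roles, order and strand setting are not given in the sources used here. Per the file headers, which name DESeq2 1.24.0, the deposited signal is a normalized count; the values show reads over 1 size factor for each library, set separately for 2018 and 2019, so levels are compared within a year's table only. Every value was a whole multiple of its library's step (tolerance 1e-06), so whole reads were recovered in all 24 libraries. The authors' deposited log2 fold changes and p-values (adjusted) are quoted only where named as theirs.

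The main test was limma 3.58.1 in R 4.3.3, with a mean-variance trend, on log2(normalized count + 1), two-sided, among genes with at least 10 normalized counts in at least 3 libraries, with p-values adjusted over all of these by Benjamini-Hochberg; a call is an adjusted p under 0.05. Batches 1 to 3 shared 1 fit of 12 libraries, the D153N line and vcs-6 were each fitted with their own WT, and the difference of effects was fitted over all 24 libraries. Alternatives were edgeR 4.0.16 and DESeq2 1.42.0 on recovered reads, pseudocounts of 0.5 and 5, no filter, library size as the scaling, other sets of libraries, the batch as a replicate block, and each library left out. The procedure was also run on simulated counts. These were drawn for each library apart, with no batch effect, so the run cannot show how shared batches affect the tests.

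In batches 1 to 3, deviations from group means had r of 0.14 to 0.68 for 18 same-batch pairs, against -0.58 to 0.22 for 36 others. In batches 7 to 9 the values were 0.07 to 0.23 for 3 same-batch pairs, against -0.33 to 0.17 for 6 others. The ranges overlapped in both sets. Deviations within a group cancel out, so a positive same-batch r pulls the other pairs down, and this contrast is partly built in. The main tests held no batch term. Promoters, gene models and shared words come from the RefSeq TAIR10.1 sequence and annotation. The members and lists were chosen with earlier results of these data known. Named genes are the 10 members, DNE1, VCS, up to 4 called genes in each direction per list and comparison, and the 5 genes nearest to CRK23 and to CRK6; the text prints a part of these.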

Additional observations from a re-analysis of the deposited data

How the results depend on the processing

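The counts of called members kept their value under every alternative in dne1 (0) and between OE1 and OE2 (0), and in vcs-6 2 members were called lower throughout. DESeq2 called 2 members lower in the D153N line, against 1 by limma, and leaving out 1 library gave 0 to 3. In vcs-6 the count called higher was 3 to 6 with 1 library left out, and 5 under every other alternative; for the vcs-6 effect minus the D153N effect it was 4 to 5. With the batch as a replicate block no call of a member changed: 1 member was lower in the D153N line (CRK10, adjusted p = 0.032), and 0 were called in dne1 and between OE1 and OE2. No block could be fitted for vcs-6, whose columns carry no batch. The block lowered the count over all genes in the D153N line to 2125, against 3365, and leaving out 1 library gave 754 to 4084 there. In dne1 the count over all genes was 4, with 2 to 7 under the alternatives, and between OE1 and OE2 it was 0, with 0 to 2.

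Signs turned only for members that were not called. With library size as the scaling the change was 0.00099 for CRK5 and 0.042 for CRK8 in the D153N line, and 0.034 for CRK10 and 0.010 for CRK22 in dne1. Between OE1 and OE2 it was 0.073 by edgeR and 0.078 by DESeq2 for CRK10, and 0.014 and 0.019 for CRK23. CRK11 in the difference of effects was -0.088 by edgeR and -0.051 by DESeq2. With 1 library left out, changes ran from -0.38 to 0.15 for CRK5 and -0.32 to 0.092 for CRK8 in the D153N line. In vcs-6 they ran from -0.12 to 0.24 for CRK5 and -0.89 to 0.062 for CRK11. In dne1 they ran from -0.42 to 0.31 for CRK10, -0.17 to 0.47 for CRK11 and -0.25 to 0.19 for CRK22. Between OE1 and OE2 they ran from -1.02 to 0.19 for CRK6, -0.32 to 0.35 for CRK10, -0.30 to 0.37 for CRK13, -0.11 to 0.61 for CRK14, -0.10 to 0.25 for CRK22 and -0.28 to 0.12 for CRK23. In the difference of effects they ran from -0.10 to 0.43 for CRK5 and -0.20 to 0.75 for CRK11. The causes were not tested. Low reads limit CRK7 and CRK23 in WT.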
